A study of Mus musculus with 3 samples.

Results

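DNA replication and S phase genes were followed after 24 h of culture at 3 stiffness levels, in cells sorted from the synovium of mouse ankles. The set holds 42 genes, listed by symbol for what their products do in replication. The list was drawn up with earlier results of these data known, though no measured value enters its rule. All 42 were found by symbol among the 56833 genes of the table. All 42 also passed the minimum used for counts over genes, a mean of at least 50 normalized counts over the libraries, as did 11873 genes in total. The lowest member value in any library was 142 normalized counts (Gins1, stiff), so none passed through a single library.

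The 3 libraries came from mice of the genotype Efhd1CreER; Ai9, in which a Cre recombinase driven by Efhd1 switches on the red reporter tdTomato, and every library was made from tdTomato-positive cells on collagen-coated CytoSoft plates. The softest plate was rated at 0.2 kPa and the stiffest at 64 kPa, with 8 kPa as the intermediate level, and there was 1 library for each. The age of the mice, the number pooled, and how the reporter was induced are not given in the sources used here. No difference below has a replicate check, so culture and stiffness cannot be told apart and no p-value is given. The submitters call the cells telocytes, a kind of interstitial cell. Of 3 genes used here for that label, Pdgfra had 5884, 6298 and 5118 normalized counts in soft, intermediate and stiff and Cd34 had 235, 242 and 318. Efhd1, the gene whose Cre line marks the cells, had only 10, 5 and 3 reads.

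Before a cell divides, it loads the ring-shaped MCM helicase onto origins of replication with the origin recognition complex, Cdc6 and Cdt1. In S phase Cdc45 and the GINS complex turn that ring into the active helicase, primase and polymerase alpha start each strand, and polymerases delta and epsilon extend it on the sliding clamp PCNA. Entry into S phase is driven by cyclin E and by E2F transcription factors, which activate many of the genes described here. In synovium, fibroblast growth of this kind is best known from the thickened lining of inflamed joints.

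E2F factors bind short GC-rich sites near transcription starts, and such sites are shown because many replication genes are known E2F targets. The octamers TTTGGCGC, TTTCCCGC, TTTCGCGC and TTTGCCGC were searched on both strands of RefSeq promoter windows (build GRCm38.p6), which run from 250 bases before to 50 after each start. Of the 42 genes, 35 had a window and 13 of them held a match, which is 37.1%, against 4.85% of the 9326 genes with a mean of at least 50 and a window. A match in any window counted where a gene has several, and by window the shares were 13 of 40 (32.5%) and 3.99%. The shares by role were 4 of 5 for the MCM helicase, 3 of 4 for origin licensing and 0 of 5 for nucleotide supply. A palindromic arrangement makes octamers overlap in Mcm5 and Mcm6. The lines below give 30 bases around a match for the helicase and licensing genes that had one and for Gins3 and Rfc3, with matching bases in capitals. Each is read 5′ to 3′ on the gene's strand, and its position is the exact match in GRCm39.
Mcm3 (chr1:20890499-20890528, minus strand): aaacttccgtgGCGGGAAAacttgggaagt
Mcm5 (chr8:75835975-75836004, plus strand): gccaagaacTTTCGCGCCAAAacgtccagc
Mcm6 (chr1:128287532-128287561, minus strand): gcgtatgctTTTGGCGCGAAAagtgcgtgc
Mcm7 (chr5:138170292-138170321, minus strand): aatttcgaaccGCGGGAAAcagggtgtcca
Orc1 (chr4:108436613-108436642, plus strand): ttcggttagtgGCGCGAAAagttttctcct
Cdc6 (chr11:98798828-98798857, plus strand): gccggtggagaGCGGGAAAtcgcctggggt
Cdt1 (chr8:123294774-123294803, plus strand): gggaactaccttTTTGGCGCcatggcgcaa
Gins3 (chr8:96360135-96360164, plus strand): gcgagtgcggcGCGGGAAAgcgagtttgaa
Rfc3 (chr5:151574660-151574689, minus strand): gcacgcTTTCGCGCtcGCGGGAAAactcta

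The matches began between 185 bases before and 40 bases after the start, as the plot of match positions shows. These distances are from RefSeq's starts, which can differ from the GENCODE canonical starts behind the gene positions given further on. By the canonical start, the printed windows of Mcm5 and Mcm6 lie before it, that of Orc1 spans it and those of the other 6 lie after it. The box CCAAT, bound by the factor NF-Y, was found on either strand for 21 of the 35 genes (60.0%), against 43.1% of the 9326 genes. CCAAT is contained in none of the octamers, and in Mcm7 one CCAAT box starts at the last base of an octamer. A match is a description of letters and not of binding. Between stiff and soft, 48.9% of all genes tested had a log2 ratio below 0. The 13 genes with an E2F octamer had a median log2 ratio of stiff to soft of -0.06, with 9 below 0, and the 22 with a window but no octamer had -0.18, with 21 below 0. The 7 without a window had -0.20, with 6 below 0. The ranges of the first 2 groups overlapped, at -0.58 to 0.06 and -0.46 to 0.46.

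**Figure D1:**
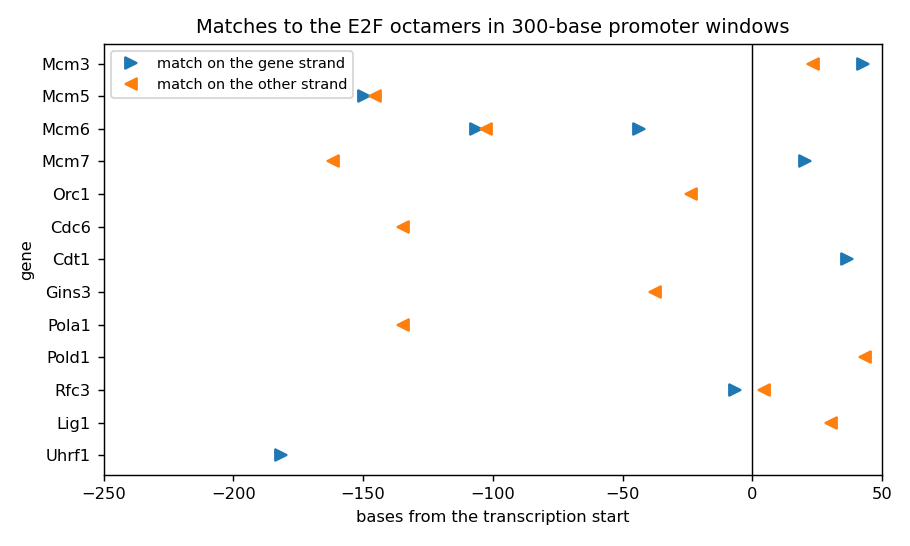
Matches to the 4 E2F octamers in the promoter windows of the 13 genes that had one, by distance of their middle in bases from RefSeq's transcription start, with arrows for the strand of the match. Matches fall on both sides of the start, and Mcm6 has 3.

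The libraries held 25487064 (soft), 28081600 (intermediate) and 26474862 reads (stiff), and the 42 genes took 70404, 73837 and 62666 of them. Normalized counts are the authors' values, reads divided by a size factor for each library. A log2 ratio below is taken from these values after adding 1, and its counting interval is the exact 95% Clopper-Pearson interval from the reads, which covers counting error only. In bulk RNA, fewer cells in S phase and less RNA per cell cannot be told apart.

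Most replication genes were a little lower in the stiff than in the soft library. The stiff to soft log2 ratio was below 0 for 36 of 42, or 85.7%, against 48.9% of all genes tested, and above 0 for 6, against 51.1%. When scaled by total reads or upper quartile, which lowers the ratio of every gene alike, Mcm6, Pola1 and Pold1 were also below 0, as were 56.9% and 57.2% of all genes. The median ratio as deposited was -0.17, against 0.005 over all genes. Summed over the set, levels were 72177 (soft), 69606 (intermediate) and 64264 (stiff) normalized counts. The summed log2 ratio of stiff to soft was -0.17 (counting interval from -0.18 to -0.15). The differences were small: 2 genes, Gins1 and Gins3, were lower by a log2 ratio of at least 0.5, which is 4.76% of the set against 3.77% of all genes, and 0 were higher by as much, against 11.8%. At a ratio of at least 0.25, 13 genes or 31.0% were lower, against 15.2%, and 2 genes were higher, against 23.7%. The counting interval, which narrows as reads increase, lay below 0 for 24 genes, against 25.9% of all genes, and above 0 for 2, against 31.3%, and it held 0 for 16.

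The intermediate library stood close to the soft one. The log2 ratio of intermediate to soft was below 0 for 29 genes, or 69.0%, against 46.5% of all genes, and above 0 for 13, against 53.5%. The median was -0.05, or -0.03 with the trend of length and GC content subtracted. Under upper quartile scaling it was -0.08, against -0.02 over all genes. None of the 42 reached 0.5 in either direction, while 0.657% of all genes were lower and 3.94% higher by that much. At 0.25, 3 genes were lower (Gins1, Gins3 and Ccne2), against 4.35% of all genes, and 2 were higher (Pole and Chaf1a), against 14%. The counting interval held 0 for 32 of the 42, lay below 0 for 7, against 13.5% of all genes, and above 0 for 3, against 21.8%. Between stiff and intermediate 36 genes were below 0, against 48.9% of all genes, and 6 above 0, against 51.1%, with a median of -0.14, and none reached 0.5 in either direction, against 3.42% of all genes lower and 5.42% higher. At 0.25, 7 were lower (Mcm7, Cdc45, Pcna, Rfc4, Tyms, Tk1 and Chaf1b), against 12.5%, and 0 were higher, against 16.2%. The interval lay below 0 for 19 genes, against 22%, above 0 for 0, against 26.3%, and held 0 for 23. The soft library had the highest value for 29 of the 42 genes, or 69.0%, against 34.6% of all genes. The stiff library had the lowest for 32, or 76.2%, against 40%. These comparisons share libraries, so they are not separate evidence.

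**Figure D2:**
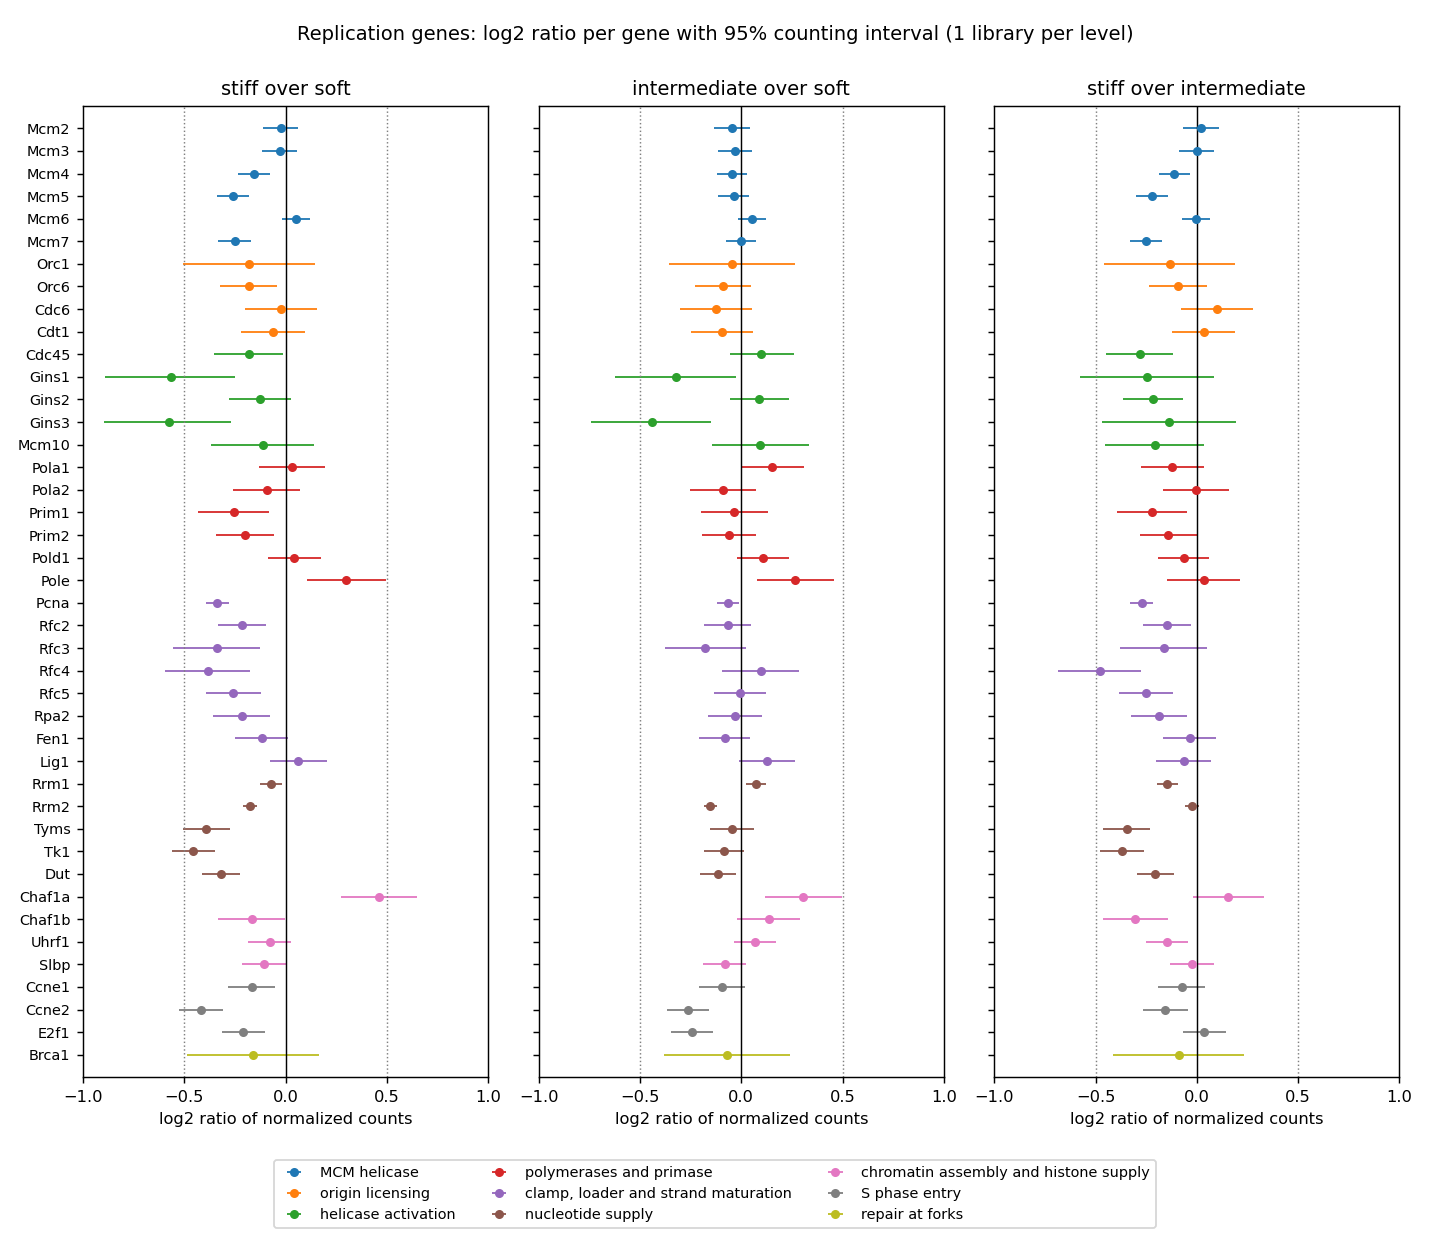
Log2 ratios of the 42 genes in the 3 comparisons, with points colored by role and bars for 95% counting intervals, and dotted lines at -0.5 and 0.5. In stiff over soft most points lie left of 0, with Gins1 and Gins3 at the far left and Chaf1a and Pole at the right.

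The macrophage genes differed far more between the same libraries. All 17 macrophage genes of the list were in the table, and of the 16 that passed the minimum 16 were higher in the stiff than in the soft library, 14 of them by at least 0.5, with a median log2 ratio of 1.25. The lowest were Cd14 at 0.31, Fcgr1 at 0.48 and Tyrobp at 0.95, and the highest Csf1r at 1.41, C1qa at 1.49 and Laptm5 at 1.58. Summed over the 17 genes, levels were 37739 (soft), 47928 (intermediate) and 82509 (stiff) normalized counts, and every gene of the list had reads in every library. The part of such cells in the ratios of the replication genes was not tested. Of 8 fibroblast genes, 4 were higher and 4 lower in the stiff library, with summed levels of 227690, 273992 and 326317. They ran from Dcn at -0.44, Lum at -0.36 and Pdgfra at -0.20 to Col1a2 at 0.28, Thy1 at 0.37 and Col1a1 at 0.95. Summed levels of the other lists were 2354, 3269 and 3136 for 5 mural and 159.9, 192 and 163 for 6 endothelial genes. Those that passed the minimum were Rgs5 at -0.08, Notch3 at -0.05, Cspg4 at 0.53 and Mcam at 0.86 (mural) and Egfl7 at -0.13 (endothelial). Of 4 skeletal muscle genes only Acta1, an actin, passed the minimum, with 168, 297 and 622 normalized counts, and Ckm, Myh1 and Tnnt3 had at most 5 reads in a library. Lymphoid and erythroid markers had at most 1 read in a library.

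The MCM helicase is a ring of subunits Mcm2 to Mcm7. Mcm5 (chr8:75836140-75856231, plus strand, 17 exons in the GRCm39 canonical transcript) had normalized counts of 2816 on soft, 2743 on intermediate and 2352 on stiff plates. Stiff against soft gave a log2 ratio of -0.26 (counting interval from -0.34 to -0.18). Mcm7, another subunit of the ring, had 2826, 2822 and 2373, and its ratio was -0.25 (from -0.33 to -0.17). Both stood at nearly the same value in soft and intermediate, and the stiff library was the low one. Mcm4 had 2835, 2747 and 2543 and a ratio of -0.16 (from -0.24 to -0.08). For the other 3 subunits the counting interval of stiff to soft held 0. Mcm2 had 2171, 2103 and 2133, Mcm3 had 2216, 2170.1 and 2170.0 and Mcm6 had 3335, 3464 and 3454 normalized counts in soft, intermediate and stiff. Their ratios were -0.03, -0.03 and 0.05, or -0.16, -0.13 and 0.08 with the trend of length and GC content subtracted. After that subtraction Mcm4 stood at -0.11, above Mcm2 and Mcm3, with Mcm5 at -0.37 and Mcm7 at -0.29. The intervals of Mcm5 and Mcm7 did not overlap that of Mcm6. In these libraries the subunits thus differed in ratio by more than counting error, and variation between cultures is not covered. Per kb of transcript, Mcm6 was the highest of the ring, at 1123, 1166 and 1163, and Mcm3 the lowest, at 408, 399.5 and 399.

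Origin licensing genes differed little. Orc6, the smallest part of the origin recognition complex, had normalized counts of 893 on soft, 839 on intermediate and 787 on stiff plates, a stiff to soft ratio of -0.18 (from -0.32 to -0.04). Orc1, its largest subunit, had 174, 169 and 154 in the same order and a ratio of -0.18 (from -0.51 to 0.15). Cdc6 and Cdt1, the loaders of the helicase, were lowest in the intermediate library, with 536, 492 and 527 for Cdc6 and 701, 656 and 672 for Cdt1. Their stiff to soft ratios were -0.02 and -0.06, and both intervals held 0. The intervals of both genes between the intermediate library and each of the others also held 0. Per kb of transcript, Orc6 was the highest of the 4, at 529, 497 and 466, and Orc1 the lowest, at 52, 50.3 and 45.9.

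The lowest stiff to soft ratios of the set were those of Gins3 and Gins1, in the GINS complex of the active helicase. Gins3 (chr8:96360081-96371688, plus strand, 3 exons) had normalized counts of 219 on soft, 161 on intermediate and 147 on stiff plates. Stiff against soft gave a log2 ratio of -0.58 (from -0.90 to -0.27), or 0.67 times the soft level. Gins1 (chr2:150751486-150773200, plus strand, 7 exons) had 210.2, 168 and 142 and a ratio of -0.57 (from -0.89 to -0.25), or 0.675 times the soft level. With the trend of length and GC content subtracted, Gins3 stood at -0.51 and Gins1 at -0.42, which no longer reaches 0.5 and lies above Ccne2 at -0.49. In both genes the intermediate library lay between the others, at -0.44 for Gins3 and -0.32 for Gins1 relative to soft, and both of those intervals were below 0. These 2 genes are among the 4 of the set with a mean under 200, so their intervals are wide. Gins2, also a subunit, had 751, 799 and 687, with a ratio of -0.13 (from -0.28 to 0.02). Gins4, which completes the complex, is not one of the 42 and is named for that reason after its values were seen, had 1023, 880.5 and 802 and a ratio of -0.35 (from -0.49 to -0.21).

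Cdc45, the partner of GINS in the active helicase, was highest in the intermediate library, with 626 on soft, 671 on intermediate and 552 on stiff plates. Its stiff to intermediate ratio was -0.28 (from -0.45 to -0.12), and its stiff to soft ratio was -0.18 (from -0.35 to -0.01). Mcm10, which helps to activate the helicase, had 279.9, 299 and 258 and a stiff to soft ratio of -0.11 (from -0.37 to 0.14). All 5 genes of helicase activation were lower in the stiff than in the intermediate library, with a median of -0.22. In that comparison 36 of the 42 genes and 48.9% of all genes were below 0. The interval lay below 0 for Cdc45 and Gins2 and held 0 for Gins1, Gins3 and Mcm10.

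Polymerases and primase differed among themselves. Prim1 and Prim2, the primase that lays down the RNA primer, had 604, 589 and 506 (Prim1) and 905, 868 and 788 (Prim2) normalized counts in soft, intermediate and stiff. Their stiff to soft ratios were -0.26 (from -0.43 to -0.08) and -0.20 (from -0.34 to -0.06), or -0.12 and -0.11 with the trend of length and GC content subtracted. Pola1, the catalytic subunit of polymerase alpha, had 628, 699 and 642 and Pola2, its accessory subunit, had 636, 598 and 596, with ratios of 0.03 and -0.09. Pold1, the catalytic subunit of polymerase delta, had 961, 1035 and 989.6 and a ratio of 0.04. The intervals of these 3 held 0. Pole (chr5:110434172-110486287, plus strand, 49 exons), the catalytic subunit of polymerase epsilon, was the exception, with normalized counts of 409 on soft, 492 on intermediate and 504 on stiff plates. It was higher by a log2 ratio of 0.30 (from 0.11 to 0.49) in stiff and of 0.27 (from 0.08 to 0.46) in intermediate than in soft. Its transcript, at 8110 nt, is the longest of the set, and with the trend of length and GC content subtracted, as described below, its stiff to soft ratio was -0.06.

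Genes of the clamp and its loader were lower in the stiff library. Pcna (chr2:132091082-132095234, minus strand, 6 exons), the sliding clamp, had normalized counts of 5791 on soft, 5535 on intermediate and 4581 on stiff plates. On stiff plates it stood at 0.791 times the soft level, a log2 ratio of -0.34 (from -0.40 to -0.28), and the step from intermediate to stiff, at -0.27 (from -0.33 to -0.22), was larger than the step from soft to intermediate, at -0.07 (from -0.12 to -0.01). The intervals of the 2 steps did not overlap. With the length and GC trend subtracted, as described further on, the stiff to soft ratio of Pcna was -0.20 and its intermediate to soft ratio 0.02. Of the loader subunits, Rfc4 had 437, 467 and 334 in soft, intermediate and stiff, Rfc3 had 428, 378 and 337, Rfc5 had 986, 980.4 and 825 and Rfc2 had 1255, 1197 and 1079.8. The stiff library was lowest for each of the 4. Their stiff to soft ratios ran from -0.38 for Rfc4 to -0.22 for Rfc2, and all 4 intervals were below 0. The fifth loader gene, Rfc1, is not one of the 42 and stood the other way, with 199, 264 and 374 normalized counts and a ratio of 0.91 (from 0.66 to 1.17).

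Rpa2, which coats single-stranded DNA, had normalized counts of 897 on soft, 878 on intermediate and 771 on stiff plates and a stiff to soft ratio of -0.22 (from -0.36 to -0.08). Fen1, which trims the flaps of lagging strand fragments, had 1026, 969 and 946 and a ratio of -0.12 (from -0.25 to 0.01). Lig1, the ligase that joins those fragments, had 809.9, 885 and 846 and a ratio of 0.06 (from -0.08 to 0.21). The intervals of Fen1 and Lig1 thus both held 0. Over the 8 genes of clamp, loader and strand maturation the median was -0.24, and the summed ratio was -0.26 (counting interval from -0.30 to -0.22).

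Nucleotide supply held the most abundant gene. Between stiff and soft 5 of its 5 genes were below 0, against 36 of 42 in the set and 48.9% of all genes. Of 10 nucleotide supply genes outside the set, described further on, only 2 were below 0. The median was -0.32, or -0.24 with the trend subtracted, and the summed ratio, in which Rrm2 weighs most, was -0.19 (counting interval from -0.22 to -0.16). Rrm2 (chr12:24757811-24764145, plus strand, 10 exons), the small subunit of ribonucleotide reductase, which makes deoxyribonucleotides, had normalized counts of 15941 on soft, 14337 on intermediate and 14112 on stiff plates. It stood at 6079.6, 5468 and 5382 per kb, the highest level of the 42. Its partner Rrm1 had 5856, 6158 and 5567, or 1235, 1299 and 1175 per kb. The subunits differed in pattern: relative to soft, Rrm2 was lower in the intermediate library (-0.15, from -0.19 to -0.12) and Rrm1 was higher (0.07, from 0.02 to 0.12). Against soft, the stiff ratios were -0.18 for Rrm2 and -0.07 for Rrm1, or -0.14 and -0.0032 with the trend subtracted.

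The enzymes of thymidine nucleotides were lower by more. Tk1 (chr11:117706352-117716918, minus strand, 7 exons), the thymidine kinase of dividing cells, had normalized counts of 1720.3 on soft, 1621 on intermediate and 1254 on stiff plates, a stiff to soft ratio of -0.46 (from -0.56 to -0.35), or 0.729 times the soft level. Tyms, thymidylate synthase, had 1413, 1368 and 1077 and a ratio of -0.39 (from -0.51 to -0.27), or 0.762 times the soft level. Dut, the dUTPase that keeps uracil out of DNA, had 2138, 1973 and 1713 and a ratio of -0.32 (from -0.41 to -0.23). For Tk1 and Tyms the soft and intermediate values were close and the interval of their ratio held 0, so the stiff library was the one that stood apart.

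Chromatin assembly genes split. Chaf1a (chr17:56347303-56377563, plus strand, 14 exons), the large subunit of the chromatin assembly factor that places histones on new DNA, had normalized counts of 412 on soft, 509 on intermediate and 567 on stiff plates. It had the highest stiff to soft ratio of the set, at 0.46 (from 0.27 to 0.65), or 1.38 times the soft level, and the intermediate library lay between. Chaf1b, a further subunit of the same factor, had 639, 701 and 568, with a ratio of -0.17 (from -0.34 to -0.0015) to soft and of -0.30 (from -0.47 to -0.14) to intermediate. Of the exon bases of the Chaf1a transcript, 50% lie opposite exons of Ubxn6, which had 1512, 1632 and 1428 reads in soft, intermediate and stiff. With the length and GC trend subtracted, Chaf1a stood at 0.09. Uhrf1, which guides maintenance of DNA methylation, had 1501, 1573 and 1420.3 and a ratio of -0.08 (from -0.19 to 0.03). Slbp, the factor that binds the stem-loop of histone mRNA, had 1426, 1347 and 1324 and a ratio of -0.11 (from -0.22 to 0.0031).

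The genes of S phase entry were highest on the soft plate. Ccne2 (chr4:11190561-11204947, plus strand, 11 exons), a cyclin E, had normalized counts of 1663 on soft, 1387 on intermediate and 1244 on stiff plates and a stiff to soft ratio of -0.42 (from -0.53 to -0.31), or 0.748 times the soft level, and -0.49 with the trend subtracted. Ccne1, the other cyclin E, had 1291, 1209 and 1149 and a ratio of -0.17 (from -0.29 to -0.05). E2f1, a transcription factor that activates replication genes, had 1640.3, 1384 and 1419. Its ratio to soft was -0.25 (from -0.35 to -0.14) in the intermediate and -0.21 (from -0.31 to -0.10) in the stiff library, so the difference lay between soft and the other two. Brca1, which acts in repair at stalled forks, had 174, 166 and 156 and a ratio of -0.16 (from -0.49 to 0.16), and per kb it was the lowest of the 42, at 26.2, 24.9 and 23.4.

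**Figure D3:**
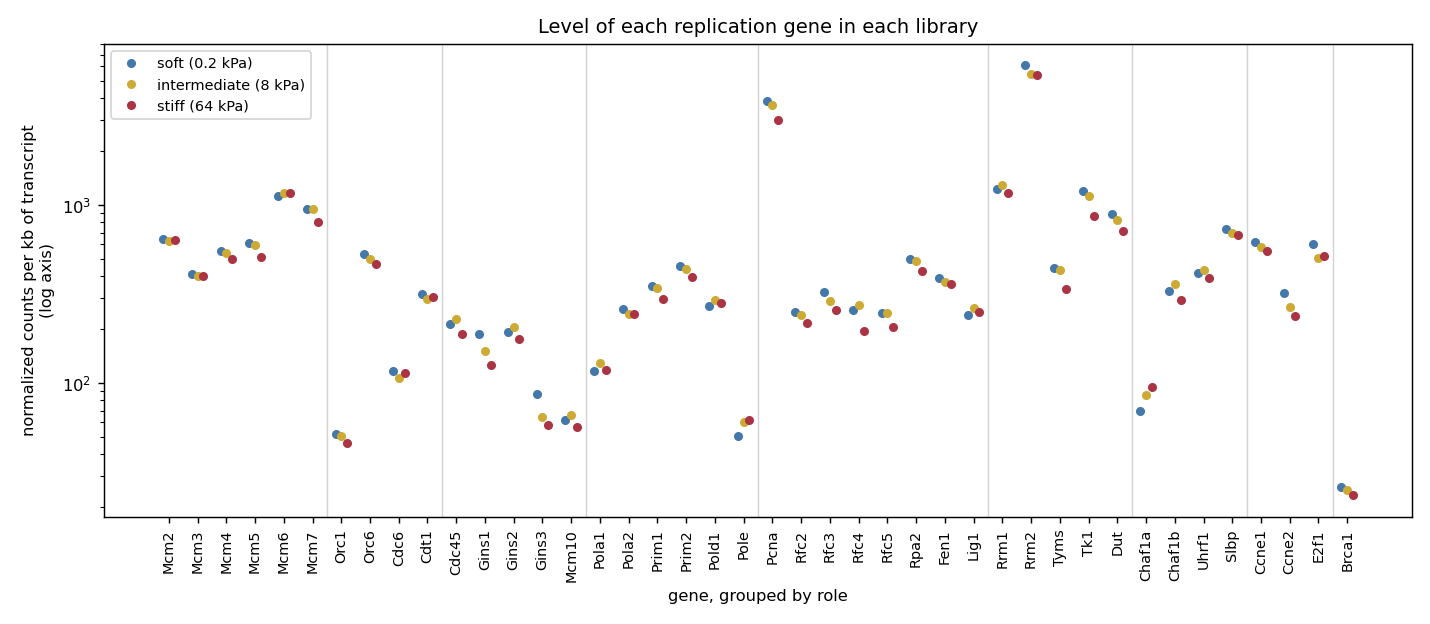
Normalized counts per kb of canonical transcript (log axis) of the 42 genes, grouped by role, with 1 point for each library. Levels span from Brca1 at 26.2, 24.9 and 23.4 to Rrm2 at 6079.6, 5468 and 5382 in soft, intermediate and stiff, and the libraries lie close together beside the distances between genes.

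Other genes of the pathway were taken from 5 lists, and of their 101 genes tested 64 had a stiff to soft ratio below 0, with a median of -0.10. The share of all genes below 0, against which the list counts stand, was 48.9% for stiff over soft, 46.5% for intermediate over soft and 48.9% for stiff over intermediate. Of 34 further fork and origin genes, 24 had a stiff to soft ratio below 0, with a median of -0.15. The lowest were Dscc1 at -0.58, Pold4 at -0.48 and Mcm8 at -0.37, and the highest were Rfc1 at 0.91, Clspn at 0.23 and Atad5 at 0.21. Of 15 fork repair genes 15 were below 0, with a median of -0.27. They ran from Rad54l at -0.46, Rad51ap1 at -0.44 and Chek1 at -0.41 to Fancd2 at -0.10, Msh6 at -0.09 and Fanca at -0.02. Of 13 chromatin genes, 8 were below 0, a share not far from that of all genes, from Asf1a at -0.47, Hells at -0.42 and Atad2 at -0.27 to Ssrp1 at 0.05, Supt16 at 0.11 and Dnmt1, the maintenance DNA methyltransferase, at 0.72 (from 0.57 to 0.87).

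A pair of the lists did not share that direction. Of 10 other nucleotide supply genes, 2 were below 0, Shmt1 at -0.32 and Dtymk, the kinase after Tk1 and Tyms in the same route, at -0.29. The median was 0.11, Dck stood at 0.0026, and the highest were Mthfd1 at 0.26, Samhd1 at 0.42 and Cad, which starts pyrimidine synthesis, at 0.59. The Cad ratio was -0.06 with the length and GC trend subtracted. Of 29 genes of G1 to S control, 15 were below 0, also near the share of all genes, with a median of -0.003. Lowest were Cdkn2c at -0.36, Rbl1 at -0.36 and Ccna2 at -0.33. Highest were E2f7 at 0.67, which represses E2F targets, E2f2 at 0.68 and Myc at 0.68. The other E2F genes of the list, given after their values were seen, stood at 0.01 (E2f3), 0.19 (E2f4), -0.23 (E2f5), 0.20 (E2f6) and 0.53 (E2f8), so the family, with E2f1 at -0.21, had no single direction.

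Mitosis genes act after replication. Of 26 such genes, 23 were below 0 between stiff and soft, with a median of -0.28, but 5 were below 0 between intermediate and soft, with a median of 0.10. Between stiff and intermediate all 26 were below 0, with a median of -0.37. Their lowest stiff to soft ratios were Ccnb2 at -0.67, Ect2 at -0.51 and Ttk at -0.50, and their highest were Mki67 at 0.19, Top2a at 0.07 and Ube2c at 0.04. Of the 15 fork repair genes, 9 were above 0 between intermediate and soft (median 0.05), near the 53.5% of all genes, and 15 were below 0 between stiff and intermediate (median -0.30). The median of the 42 replication genes between intermediate and soft was -0.05. Differences between the lists were not tested.

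**Figure D4:**
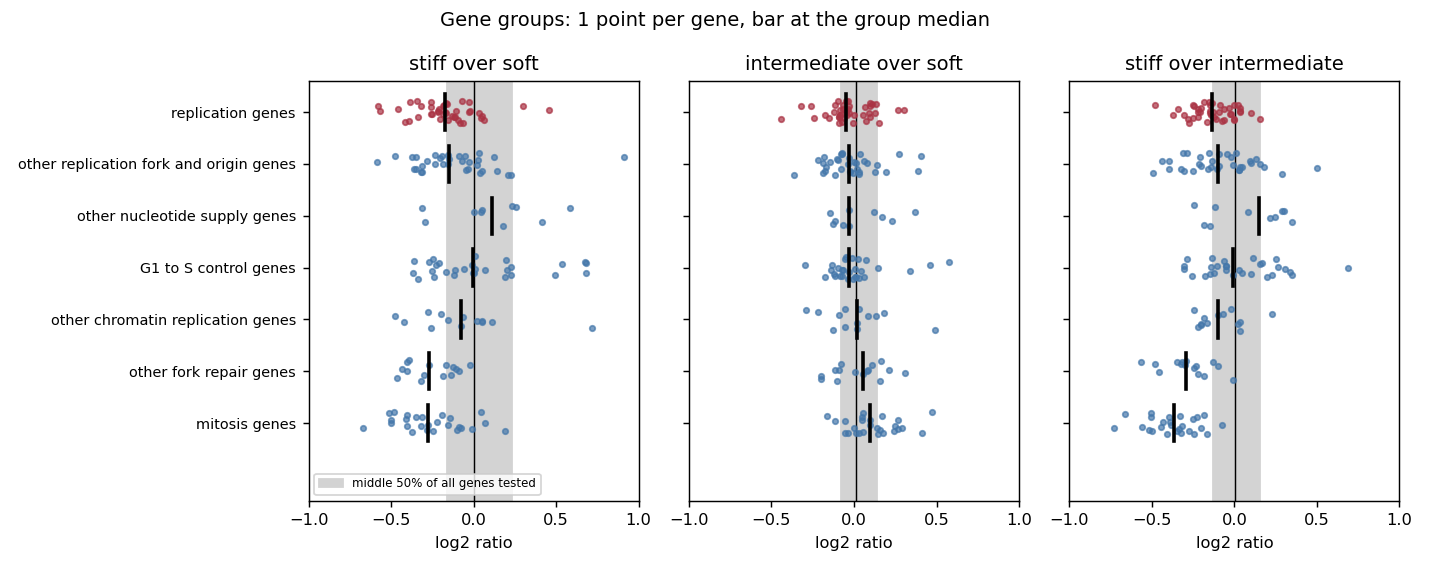
Log2 ratios of single genes (points) with the group median (bar) for the 42 replication genes and 6 other lists, in 3 comparisons, over a band for the middle 50% of all 11873 genes tested. Replication genes lie mostly left of 0 in stiff over soft, and mitosis genes lie mostly right of 0 in intermediate over soft and left of it in stiff over intermediate.

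Transcript length moved with the ratios. Over the 42 genes, which share the same libraries, Spearman's rho between transcript length and the stiff to soft ratio was 0.52, and that between GC content and the ratio was 0.30, as a description. Over 11630 genes tested with both values it was 0.26 and 0.26. When all genes were divided at the quartiles of length, the 12 replication genes in the shortest class, up to 2192 nt, had a median of -0.24, against -0.08 for all genes of that class. The 14 in the next class, up to 3485 nt, had -0.18 against -0.007. In the class up to 5166 nt 10 genes had -0.12 against 0.03, and among longer transcripts 6 genes had 5.1e-05 against 0.13. The replication genes were thus below the median of all genes in each of the 4 classes. With a local trend in length and GC content subtracted, 39 of the 42 were below 0, or 92.9%, against 50.5% of all genes, and the median of the remaining ratios was -0.15. The same count was 39 between stiff and intermediate, against 50.2%, and 27 between intermediate and soft, against 50.9%. Between stiff and soft, subtraction took 9 genes outside their counting intervals. Of these, Mcm2 stood at -0.16, Mcm3 at -0.13, Mcm5 at -0.37 and Pold1 at -0.22 afterwards, and Pole, Pcna, Rrm1, Rrm2 and Chaf1a at the values given above. Other genes stayed inside their intervals but moved in both directions. Nearer to 0 were Orc6 at -0.09, Rpa2 at -0.13, Rfc3 at -0.21 and Slbp at -0.01, and further from it were Rfc2 at -0.33 and E2f1 at -0.30. The genes above 0 after subtraction were Mcm6 at 0.08, Pola1 at 0.12 and Chaf1a at 0.09.

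**Figure D5:**
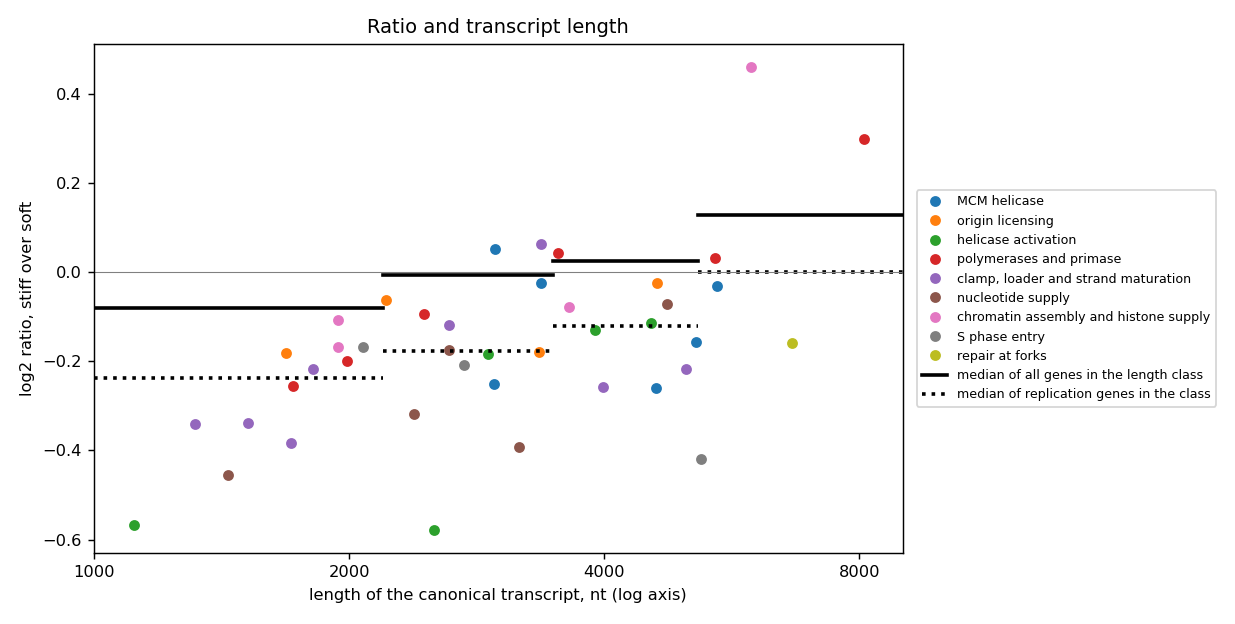
Log2 ratio of stiff over soft against length of the canonical transcript (log axis) for the 42 genes, colored by role, with the median of all genes (solid) and of the replication genes (dotted) in 4 length classes. The dotted line lies below the solid one in each class, and Chaf1a and Pole are long transcripts at the top.

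Exons of 21 of the 42 genes lie opposite exons of another gene. The libraries were stranded, but whether the counting used the strand is not given in the sources used here, so reads of such pairs may be shared. Of the Rfc4 transcript 19.8% lies opposite Eif4a2, which had 5621, 5867 and 4534 reads in soft, intermediate and stiff and a stiff to soft log2 ratio of -0.31, beside -0.38 for Rfc4. Of Orc6 12.2% lies opposite Vps35, with 7805, 8160 and 6906 reads and a ratio of -0.18, beside -0.18 for Orc6. Both partners had many more reads than the replication gene and were lower in the stiff library as it was, and the part of their reads in these ratios was not tested. Gins2 and Rfc2 were lower where the partner was higher: 70.7% of Gins2 lies opposite Gse1 (302, 431 and 591 reads, ratio 0.97), and 34.2% of Rfc2 opposite Lat2 (250, 388 and 446 reads, ratio 0.83). For Rfc5 60.5% lies opposite Wsb2 (ratio 0.07), for Ccne2 16.4% opposite Ints8 (ratio -0.03) and for Mcm7 11.6% opposite Cops6 (ratio -0.08). For Pcna 32.9% lies opposite AV099323, which had 15, 16 and 18 reads. The largest overlap was that of Fen1, with 72.7% opposite Gm10143 (3, 6 and 9 reads). For Cdc45 14.9% lies opposite Ufd1 (2136, 2173 and 2145 reads, ratio 0.01), and for Rrm2 37.1% opposite Gm59512, which was not found by symbol. Gins3, Mcm5, Tyms and Dut shared no exon bases with another gene.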

How the data were processed

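RNA was sequenced from 3 libraries, 1 for each stiffness level, made with a stranded poly(A) kit, per the labels' protocols. The submitters' processing notes name bcl2fastq 2.20.0, STAR 2.7.9a, featureCounts of Subread 2.0.1, DESeq2 1.34.0 and the build GRCm39. Their settings, the annotation and the strand option are not given in the sources used here. The authors' deposited values, a normalized signal, behave as gene counts divided by 1 factor per library, and DESeq2, which makes such values, is named in the submitters' processing notes. The 3 files were identical. Dividing a column by its smallest positive value gave whole numbers for 100% of the entries (tolerance 0.02), and these were taken as reads. Columns were assigned to levels by sample title. A count test needs replicates and was not run.

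Ratios are log2 of values plus a pseudocount of 1. Counts over genes used a mean of at least 50 and a log2 ratio of at least 0.5, with 0.25 as a second threshold. Every one of the 42 genes is named, and the 3 highest and 3 lowest stiff to soft ratios of each other list. Genes named outside that rule are said to be, or are members of a list or pair described whole. A rule for naming genes of like profile gave none, since the median profile spanned 0.16 on the log2 scale, under the 0.2 it required. The genes, roles, lists and thresholds were chosen with earlier results of these data known. Lengths, GC content and positions are those of GENCODE vM39 canonical transcripts (GRCm39), matched by symbol for 11630 of 11873 genes. The trend was fitted robustly and locally, for each gene on its 300 neighbours in length (log2) and GC content, with a minimum mean of 10. Promoter sequences are RefSeq's (GRCm38.p6), placed in GRCm39 by exact match. Alternatives were other pseudocounts, minimum means, scalings (edgeR 4.0.16 for TMM), thresholds and the trend. The steps were tested on simulated data. Work was done in Python 3.11.15 with scipy 1.17.1, scikit-learn 1.9.0, pandas 2.3.3 and numpy 2.4.6. Reads are amplified copies, so intervals cover counting error only.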

Additional observations from a re-analysis of the deposited data

How the results depend on the processing

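With 1 library per level no replicate could be left out. No paired analysis was possible because each level has a single library. The median log2 ratios of the 42 genes moved by less than the median half-width of their counting intervals under all 9 alternatives in each comparison. Between intermediate and soft that half-width exceeds the median itself, so the rule could not detect a change of sign there. That median ran from -0.08 (upper quartile scaling) to -0.03 (trend subtracted). A minimum mean of 10 and a filter of 1 read in each library kept the same 42 genes, so they could not move a median. The counts past 0.5 are small and moved with the threshold by construction. Between stiff and soft, 13 genes were lower and 2 higher at 0.25, and 0 were lower at 1. Also 0 were lower with a mean of at least 200, which drops Gins1 and Gins3, and 1 was lower with the length and GC trend subtracted, which left Gins1 at -0.42. Between intermediate and soft 3 genes were lower and 2 higher at 0.25. Between stiff and intermediate 7 were lower at 0.25, and 1 was lower under scaling by total reads and 1 under upper quartile scaling. Total read scaling shifts the median of all genes by -0.06 between stiff and soft, where 39 of the 42 genes and 56.9% of all genes were then below 0. Upper quartile scaling gave 39 and 57.2%, and TMM gave 36 and 48.9%. Under total read and upper quartile scaling 3 genes were lower by 0.5 between stiff and soft, with Tk1 at -0.51 in both. Of 126 ratios of single genes, 110 were within their own interval in all settings run, 16 left it in at least 1 and most of these did so with the trend subtracted. Subtraction turned the sign of some ratios outside their interval, among them Pold1 (-0.22) and Pole (-0.06) between stiff and soft and Pcna (0.015) between intermediate and soft. Depth limits Orc1, Brca1, Gins1 and Gins3, whose reads are fewest.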
